A study of Bos taurus with 9 samples.

Results

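H3K9ac was compared between control MDBK cells and MDBK cells treated with butyrate, by chromatin immunoprecipitation sequencing (ChIP-seq). The comparison took every peak of the H3K9ac list of each condition on all chromosomes, which gave 74125 control and 115114 butyrate peaks, or 189239 of the 673926 peaks in the 8 lists of the series. MDBK is an established epithelial line from bovine kidney, and the labels add a Holstein breed (spelled Hostein there). Treated cells were given 5 mM butyrate for 24 h in medium with fetal bovine serum. Control cells were given no butyrate, and their time is given as 0 h. Both libraries were made with the same lot of a rabbit polyclonal antibody and read at 75 nt. The other lists were H3K27ac, RNA polymerase II (Pol II) and H3K9me3 from the same conditions, and they are used here only beside H3K9ac.

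H3K9ac is acetylation of lysine 9 of histone H3, a mark of active promoters and enhancers. It is written by histone acetyltransferases and removed by histone deacetylases. Butyrate, a volatile fatty acid made by rumen microbes, inhibits many of these deacetylases, so that treated cells carry more acetylated histone in bulk, while a peak list shows only where the signal of a library stands above its background.

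Each condition had 1 library, so no difference below has a replicate check and no test between conditions was possible. Intervals are 95% intervals that cover counting error only, and neighbouring peaks are not independent of each other. The control library was sequenced on lane 4 and the butyrate library on lane 5, and lane and treatment cannot be told apart. With a control time of 0 h, any difference in time in culture cannot be told apart from treatment either. The lists carry positions without height, score or depth, and the study lists more reads for the control than for the butyrate H3K9ac library, so that the longer butyrate list, with its shorter peaks, came from the less deeply sequenced library. The part of depth in peak number and length was not tested. A longer or shorter peak is a longer or shorter stretch above the calling threshold, which is not the same as more or less acetylation.

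Peaks were first sorted by length, to ask which lengths made up the longer butyrate list. The classes were under 300 bp, 300-500 bp, 500-1000 bp and at least 1000 bp, each upper limit belonging to the next class. Short peaks were more numerous after butyrate and long ones were fewer. Peaks under 300 bp numbered 36931 in control and 68399 after butyrate, a log2 ratio of 0.89 (interval 0.87 to 0.91). Peaks of 300-500 bp numbered 22064 and 34516, a log2 ratio of 0.65 (0.62 to 0.67). In the class of 500-1000 bp the order turned, with 12558 control and 11548 butyrate peaks (log2 ratio -0.12, -0.16 to -0.08). Peaks of at least 1000 bp numbered 2572 in control and 651 after butyrate, a log2 ratio of -1.98 (-2.11 to -1.86). The butyrate list therefore held 31468 more peaks in the shortest class, and the number in the longest dropped by 1921.

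In narrower steps the ratio fell with length. At the shortest length, which was the same in both lists, there were 6080 control and 15030 butyrate peaks, a ratio of 2.47, whereas the 4 further steps below 300 bp lay between 1.70 and 1.75. The lists were of like size at 600-649 bp, with 1683 and 1729 peaks (log2 ratio 0.04, -0.06 to 0.14). From 650 bp upwards control peaks were more numerous in every step. The control list held 435 peaks of 1500-1999 bp against 41 after butyrate, and 144 peaks of 2000-2999 bp against 5. The 90th percentile of length was 686 bp in control and 509 bp after butyrate, and the 99th percentile was 1420 bp and 896 bp, so that the lists differed most in their long tail.

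**Figure D1:**
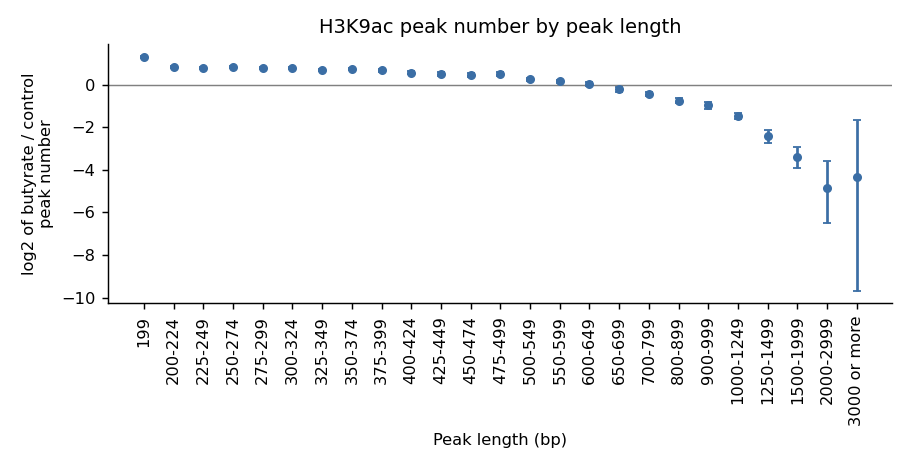
Log2 ratio of butyrate to control H3K9ac peak number (vertical axis) in steps of peak length in bp (horizontal axis), with 1 library a side; bars are exact 95% binomial intervals. The ratio is above 0 up to 599 bp, spans 0 at 600-649 bp and lies below 0 at all longer steps.

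The bases under the peaks shifted in the same way. Peaks of at least 500 bp held 41.0% of the bases covered by H3K9ac in control and 21.9% after butyrate. In the class of at least 1000 bp the covered length was 3.49 Mb in control and 0.771 Mb after butyrate, and in the class under 300 bp it was 8.70 Mb and 15.9 Mb. All 29 autosomes had more butyrate than control peaks in both classes below 500 bp, with log2 ratios from 0.53 to 1.22 under 300 bp, and all 29 had fewer peaks of at least 1000 bp, with log2 ratios from -2.98 to -0.78. The class of 500-1000 bp was mixed, with 6 autosomes higher and 22 lower after butyrate.

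H3K27ac, the acetyl mark on lysine 27 of the same histone, did not share this pattern of length. Its log2 ratios for the same classes, from short to long, were 0.72 (interval 0.70 to 0.73), 1.18 (1.16 to 1.20), 1.37 (1.34 to 1.40) and 1.12 (1.06 to 1.17). Long H3K27ac peaks were thus more numerous after butyrate, with 9955 of at least 1000 bp against 4595 in control. The difference between the marks has no replicate and was not tested.

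The positions of long control peaks were then followed into the butyrate list, since fewer long peaks can mean that a site was no longer called or that it was called as shorter peaks. Most long control peaks still met a butyrate peak. The share of control peaks that shared at least 1 bp with a butyrate peak was 35.9% (95% Wilson interval 35.4 to 36.4) under 300 bp, 51.7% (51.0 to 52.3) at 300-500 bp, 72.2% (71.4 to 73.0) at 500-1000 bp and 90.7% (89.5 to 91.8) at 1000 bp or more. A longer peak has more bases on which to be met, so the share of bases was taken as well. Butyrate peaks covered 27.9%, 36.2%, 43.2% and 47.0% of the control bases in these classes, a smaller rise than that of the shares.

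Long control peaks were often met by several shorter ones. Of the 2572 control peaks of at least 1000 bp, 1209 (47.0%) met 2 or more butyrate peaks, and the most met by 1 control peak was 6. In the shorter classes this share was 11.7% at 500-1000 bp, 2.21% at 300-500 bp and 0.474% under 300 bp. The longest butyrate peak on a control peak of at least 1000 bp had a median length of 487 bp. It reached 1000 bp for 193 of these control peaks (7.50%), lay at 500-1000 bp for 36.3%, at 300-500 bp for 30.2% and under 300 bp for 16.7%, and 9.29% met none. In the other direction, 553 of the 651 butyrate peaks of at least 1000 bp (84.9%) met a control peak. This share was 32.8% over all butyrate peaks. From short to long it was 23.9%, 39.5% and 62.8% in the classes below 1000 bp. Longer butyrate peaks also have more bases on which to be met, so these shares are not matched for length.

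**Figure D2:**
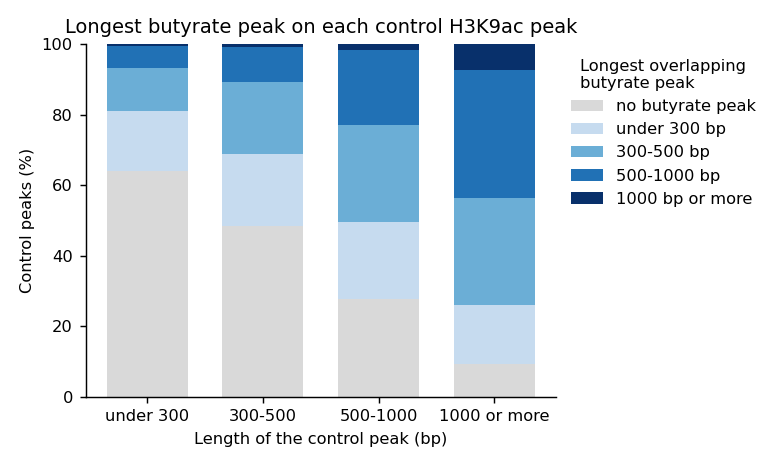
Share of control H3K9ac peaks in % (vertical axis) by their own length class in bp (horizontal axis), divided by the length of the longest butyrate H3K9ac peak that overlapped them by at least 1 bp, 1 library a side. The grey part, peaks that met none, shrinks from 64.1% under 300 bp to 9.29% at 1000 bp or more, and the darkest part, a butyrate peak of 1000 bp or more, reaches 7.50% in the longest class.

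Where 1 control peak met exactly 1 butyrate peak and the reverse, the lengths could be set side by side. There were 29454 such pairs, with a median length of 348 bp in control and 322 bp after butyrate. The butyrate peak was shorter in 55.6% of pairs and longer in 41.9%. Sorting pairs by the control length alone would favour shorter partners for long peaks, so pairs were also sorted by the mean of both lengths. In that order the median difference, butyrate minus control, was 0 bp under 300 bp, -25 bp at 300-500 bp, -164 bp at 500-1000 bp and -390 bp at 1000 bp or more, where 83.0% of 306 butyrate peaks were the shorter of their pair. Sorted by control length, the differences were 53 bp, -54 bp, -263 bp and -717 bp.

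The longest nuclear peak of each list was met by several shorter peaks of the other list. The longest control peak lay at chr27:15051012-15056851 (UMD3.1 coordinates, counted from 1) and was 5840 bp long. It was met by 5 butyrate peaks of 267, 641, 324, 472 and 303 bp, which together covered 34.4% of it. The longest butyrate peak, at chr7:53182484-53185067, was 2584 bp long and was met by 5 control peaks of at most 420 bp, which covered 57.5% of it.

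Whether the long control regions were lost or divided depended on how far apart the pieces may lie, so neighbouring peaks of each list were joined before lengths were taken. Joining of peaks less than 1 kb apart turned the log2 ratio of the class of 1000 bp or more from -1.98 to 0.34 (interval 0.30 to 0.37), with 12120 control and 15307 butyrate regions, and that of 500-1000 bp from -0.12 to 0.82. With joining below 300 bp the ratio for 1000 bp or more was -0.60, and below 500 bp it was -0.15 (-0.20 to -0.11), with 8974 and 8073 regions. Longer regions stayed fewer after butyrate over a wider range of joining. Regions of at least 2000 bp had a log2 ratio of -1.31 with joining below 500 bp and -0.21 (-0.27 to -0.15) below 1 kb, and regions of at least 5000 bp numbered 668 in control and 169 after butyrate with joining below 1 kb. With joining below 3 kb all these lengths were more numerous after butyrate, with 3293 and 5186 regions of at least 5000 bp. A control peak of at least 1000 bp met a butyrate region of that length in 42.3% of cases with joining below 500 bp. The share was 61.3% below 1 kb, against 7.50% without joining. For this share only butyrate peaks were joined, so it can only rise with the joining distance and does not separate loss from division.

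**Figure D3:**
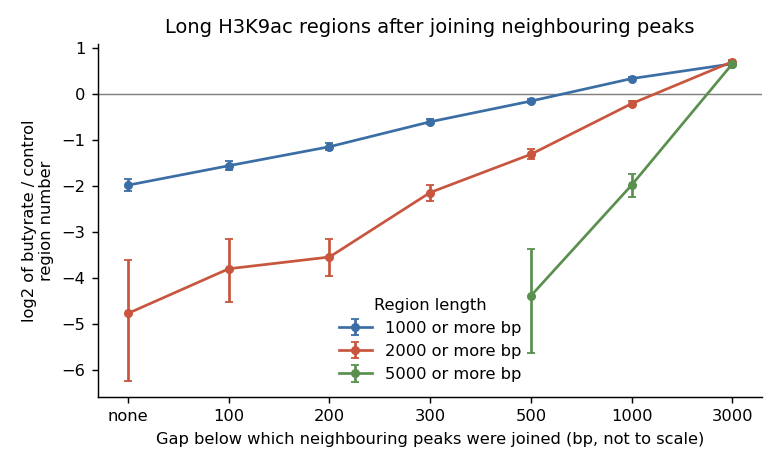
Log2 ratio of butyrate to control number of H3K9ac regions (vertical axis) of at least 1000, 2000 and 5000 bp, after neighbouring peaks closer than the gap on the horizontal axis (bp, not to scale) were joined, 1 library a side; bars are exact 95% binomial intervals, and points with fewer than 5 butyrate regions are left out. The line for 1000 bp or more crosses 0 between 500 and 1000 bp, and the lines for longer regions cross between 1000 and 3000 bp.

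Longer H3K9ac peaks met the other active marks more often in both conditions. In control, the share of H3K9ac peaks that overlapped an H3K27ac peak was 44.1% under 300 bp, and at 1000 bp or more 2546 of 2572 did so, while after butyrate these shares were 52.3% and 98.5%. Overlap with Pol II, the enzyme that transcribes protein-coding genes, went from 5.21% to 21.0% over the length classes in control and from 7.07% to 51.0% after butyrate, although the butyrate Pol II list was the shorter. Overlap with H3K9me3, which marks repressed chromatin on the same lysine, was 2.73% and 9.21% in the shortest and longest class in control, and 3.57% and 14.1% after butyrate. Longer peaks have more bases to overlap, so these shares describe the classes and do not compare them per base.

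Spacing was compared next, since a list with more peaks on the same genome must have a smaller mean gap. The mean gap between neighbouring peaks was 35.1 kb in control and 22.5 kb after butyrate. The median gap moved the other way, from 2.005 kb (interval 1.958 to 2.055) to 2.801 kb (2.76 to 2.845), a log2 ratio of 0.48. Close neighbours were thus a smaller share of the butyrate list. Gaps below 0.5 kb numbered 20246 (27.3%) in control and 22223 (19.3%) after butyrate, while gaps of 3 to 10 kb numbered 11061 (14.9%) and 25510 (22.2%). Gaps above 300 kb were fewer, with 1661 and 1373. In H3K27ac the median gap was smaller after butyrate, at 0.976 kb against 1.826 kb in control.

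**Figure D4:**
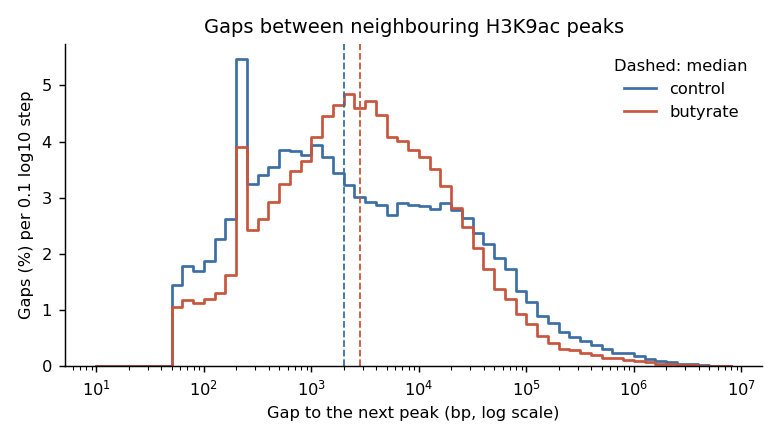
Share of gaps between neighbouring H3K9ac peaks in % per step of 0.1 on the log10 scale (vertical axis) by gap length in bp (horizontal axis, log scale), for the control and the butyrate library. Dashed lines mark the medians of 2.005 and 2.801 kb, and the butyrate curve is lower at short and at very long gaps and higher at 3 to 10 kb.

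A narrow spike at gaps of 201 bp stood out in both lists. Exactly 201 bp separated 1424 pairs of neighbours in control (1.92% of gaps) and 1297 after butyrate (1.13%), and the next most common gap, 601 bp, occurred 146 and 133 times. The H3K27ac lists had the same spike, with 1012 and 5900 gaps of 201 bp. Without these gaps the median was 2.142 kb in control and 2.887 kb after butyrate, so the larger butyrate median did not rest on them.

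Long peaks lay closest to their neighbours. The median distance to the nearest peak of the same list was 0.992 kb for control peaks under 300 bp, 0.577 kb at 300-500 bp, 0.355 kb at 500-1000 bp and 0.248 kb at 1000 bp or more. After butyrate these distances were 1.26, 0.889, 0.677 and 0.537 kb. Each class therefore stood farther from its neighbours in the butyrate list, although that list had more peaks.

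Clusters were defined as runs of peaks with gaps of at most 3 kb. In control 56337 peaks (76.0%, 75.7 to 76.3) stood in 15210 clusters, with a mean of 3.70 peaks each, and 17788 peaks stood alone. After butyrate 83626 peaks (72.6%, 72.4 to 72.9) stood in 24549 clusters, with a mean of 3.41 peaks, and 31488 stood alone. Clusters of 10 or more peaks did not multiply with the list. They numbered 605 in control and 597 after butyrate, and held 11.0% and 6.64% of all peaks. In H3K27ac such clusters numbered 870 in control and 3731 after butyrate, and the share of peaks in clusters was 75.5% and 88.8%. The order of the conditions depended on the linking distance, since a link of 1 kb gave 59.1% in control and 48.8% after butyrate, while a link of over 10 kb gave 89.3% and 91.5%.

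The cluster with the most control peaks lay at chr8:40487304-40543260, with 51 control peaks, and it held 42 butyrate peaks. The cluster with the most butyrate peaks lay at chr1:57080240-57131613, with 40 butyrate and 19 control peaks. H3K27ac peaks numbered 39 in control and 43 after butyrate in the first, and 23 and 44 in the second. Each span was chosen for its count in 1 list, which favours that list there, so these counts describe the spans and give no direction of change.

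The control clusters were followed into the butyrate list as well. Of the 605 control clusters of 10 or more peaks, 601 met a butyrate peak, and 51.5% of their 8171 control peaks were overlapped. Every control peak was overlapped in 0.165% of these clusters. How many clusters were met at all, and how many at every peak, follows largely from their number of peaks. The share of peaks overlapped does not have this limit. Of control peaks that stood alone 40.4% were overlapped, and of those in pairs 49.1%. Peak length differed as well, since the 17788 lone peaks covered 5.52 Mb and the 8171 in large clusters 4.14 Mb. Longer peaks were met more often, so these shares are not matched for length. The large clusters held 5120 butyrate peaks within their span, a log2 ratio of -0.67 (-0.73 to -0.62), and 549 of the 605 held fewer butyrate than control peaks. Spans drawn around control peaks favour control, so this ratio describes the clusters and is no measure of the change at large.

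Peaks without a partner lay in different surroundings in the lists. Of the 77313 butyrate peaks that met no control peak, 38.4% lay within 3 kb of one and 5.44% inside the span of a control cluster. Of the 38081 control peaks that met no butyrate peak, 68.0% lay within 3 kb of a butyrate peak and 19.2% inside the span of a butyrate cluster. The butyrate list covers more of the genome, which raises the second pair of shares. Among unpartnered butyrate peaks the median distance to a control peak was 5.87 kb under 300 bp and 2.67 kb at 1000 bp or more, so that the longer ones lay closer.

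The genome was then divided into 26614 windows of 100 kb on the 30 nuclear chromosomes, each peak being counted at its middle. Windows without a peak made up 56.5% in control and 46.8% after butyrate. In all, 3191 windows had butyrate but no control peaks and held 7736 peaks, and 1484 of these windows had 1 peak. In the opposite case, 624 windows had control but no butyrate peaks and held 1042 peaks. The densest 10% of windows held 58.1% of control and 48.5% of butyrate peaks, and the fullest window held 77 and 62. The Gini coefficient, which is 0 for an even spread, was 0.782 in control and 0.722 after butyrate. The variance divided by the mean of peaks per window was 10.7 and 10.9, a log2 ratio of 0.03, whose sign changed with the window length. For H3K27ac the densest 10% of windows held 53.4% of peaks in control and 52.8% after butyrate, while its variance divided by the mean was 11.2 and 20.7.

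A window was called higher or lower where the lists together had at least 5 peaks and differed at least 2-fold. Of 9920 windows with at least 5 peaks, 4330 (43.6%) were higher after butyrate and 507 (5.11%) were lower. Counts were not scaled to the size of the lists. The butyrate list held 1.55 times as many peaks as the control list, which favours calls of higher. The windows called higher had medians of 2 control and 9 butyrate peaks, and those called lower had medians of 8 and 3. Restriction to peaks of at least 300 bp lowered the first share to 31.4% and raised the second to 13.0%.

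The change was set against local control density, to ask whether regions rich in H3K9ac changed like poor ones. In windows with 1 control peak there were 3.31 butyrate peaks for each control peak. The ratio was 2.21 in windows with 2 to 3 control peaks, 1.71 with 4 to 7, 1.33 with 8 to 15 and 0.989 with 16 or more. On the log2 scale the densest class, 1040 windows with 23993 control and 23725 butyrate peaks, stood at -0.02 (-0.04 to 0.01), and windows with 1 to 3 control peaks stood at 1.31 (1.28 to 1.35). In covered bases the densest class had a log2 ratio of -0.34. Sorted this way, the butyrate excess shrank step by step until no difference in peak number was detectable.

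Sorting windows by a count that also enters the ratio makes sparse windows look as if they gained, so other orders were set beside it. Sorted by the mean control count of the 2 flanking windows, which does not enter the ratio, the ratios from sparse to dense were 1.87 where neighbours had no peak, then 1.83, 1.73, 1.66, 1.39 and 1.17. The decline was thus in the same direction and smaller, and the densest class stood above 1, with a log2 ratio of 0.22 (0.18 to 0.26). Sorted by the control H3K27ac count of the window, scaled to the same mean, the ratios were 5.63, 3.36, 2.30, 1.74, 1.36 and 0.995. Sorted by the butyrate H3K9ac count, which favours butyrate in dense windows, they were 1.56, 1.63, 1.62, 1.57 and 1.50 from sparse to dense. This leaves out the 12457 windows without a butyrate peak, which held 1042 control peaks. Among windows with a butyrate peak, the ratio in this last order varied little with density.

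**Figure D5:**
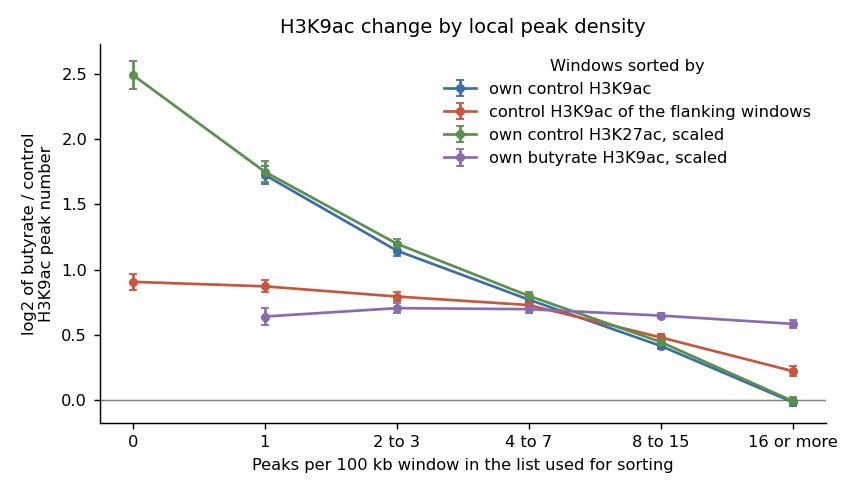
Log2 ratio of butyrate to control H3K9ac peak number (vertical axis) in 100 kb windows sorted by peaks per window in 4 ways (horizontal axis), 1 library a side; bars are exact 95% binomial intervals. The ratio declines to about 0 when windows are sorted by their own control H3K9ac or H3K27ac, and from 0.91 to 0.22 when sorted by the flanking windows. It stays between 0.58 and 0.70 when sorted by butyrate H3K9ac, an order shown only for windows with a butyrate peak.

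H3K27ac was treated in the same way. Sorted by its own control count, from 1 peak to 16 or more on the scaled count, its ratios of butyrate to control peaks were 2.36, 2.50, 2.20, 1.86 and 1.47, so that they too were lowest in the densest class. Sorted by its own flanking windows, its ratios of butyrate to control peaks were 1.72, 2.00, 2.08, 2.10, 1.92 and 1.68. In this order the sparsest and densest classes of H3K27ac stood close together, while those of H3K9ac were 1.87 and 1.17. The difference between the marks was not tested.

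Length and density were combined in the same windows. Sorted by flanking windows, peaks under 300 bp had log2 ratios from 1.15 where neighbours were empty to 0.51 in the densest class, and peaks of 300-500 bp from 0.76 to 0.38. Peaks of 500-1000 bp went from 0.12 (-0.06 to 0.31) to -0.45 (-0.55 to -0.35). Peaks of at least 1000 bp were fewer after butyrate in all 6 density classes, with log2 ratios between -2.60 and -1.21. In this order long peaks were fewer in each class, and the excess of short peaks was largest in sparse surroundings. Sorted by the control count of the window itself, peaks of at least 1000 bp numbered 14 in control and 11 after butyrate in windows with 1 control peak (log2 ratio -0.35, -1.63 to 0.90), and 65 and 47 in windows with 2 to 3 (-0.47, -1.04 to 0.10). No difference was detectable in those sparse classes, and windows without a control peak held 6 long butyrate peaks. The share of control peaks overlapped by a butyrate peak went from 42.4% to 50.6% over the flanking classes, and that of butyrate peaks overlapped by a control peak from 23.3% to 46.9%. Denser classes hold more peaks that can be met. Their peaks were also longer, with medians from 284 to 326 bp in control and from 258 to 286 bp after butyrate. The shares therefore do not compare how well positions were kept.

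Over the 29 autosomes, those with more control peaks per Mb had smaller log2 ratios. Pearson's r was -0.68 and Spearman's rho -0.66 over 29 chromosomes, and -0.60 and -0.60 without chromosomes 5 and 10, the 2 farthest from the median density. The control count enters both measures, all points come from the same pair of libraries, and the relation is given as a description.

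The X chromosome stood apart from the autosomes at every density. Its H3K9ac peaks numbered 852 in control and 601 after butyrate. By length, peaks under 300 bp were 473 and 462, those of 300-500 bp 280 and 125, those of 500-1000 bp 94 and 14, and those of 1000 bp or more 5 and 0. The fewer peaks on X were therefore nearly all of 300 bp or longer. Windows of X with 1, 2 to 3, 4 to 7 and 8 or more control peaks had log2 ratios of -0.56, -0.87, -0.89 and -1.56, where autosomal windows with the same counts had 1.79, 1.19, 0.79 and 0.22. None of these X intervals reached 0.

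Control peaks on X were also met less often. Of the control peaks on X 15.6% (13.3 to 18.2) met a butyrate H3K9ac peak, against 49.0% (48.6 to 49.4) on the autosomes. X had 4.04 butyrate peaks per Mb, fewer than any autosome, so fewer peaks could be met. Peak density and length were not matched, and these shares do not compare how well positions were kept. Of the 104 windows of X with enough peaks, 41 (39.4%, 30.6 to 49.0) were called lower and 14 (13.5%, 8.19 to 21.3) higher, against 4.75% and 44.0% of the autosomal windows. The median gap on X was 11.7 kb in control and 36.8 kb after butyrate. H3K27ac peaks on X were more numerous after butyrate, with 1583 in control and 2746 after butyrate (log2 ratio 0.79, 0.70 to 0.88), but those of at least 500 bp numbered 273 and 317 (0.22, -0.02 to 0.45), against 1.32 on all chromosomes. Of control H3K9ac peaks 56.5% (53.1 to 59.7) met a butyrate H3K27ac peak on X and 73.4% (73.0 to 73.7) on the autosomes, so this overlap was lower on X too. Pol II peaks on X numbered 375 and 291, and H3K9me3 peaks 255 and 1394.

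Single windows of 100 kb were named by the largest change in H3K9ac peak number. The largest rise was at chr1:21600001-21700000, from 21 control to 60 butyrate peaks. There 14 of the 21 control peaks were overlapped, against 48.6% in the whole control list. A window chosen for its many butyrate peaks favours such overlap. Peaks under 300 bp went from 12 to 34 there, peaks of 1000 bp or more from 2 to 0, and H3K27ac peaks from 31 to 90. At chr19:46700001-46800000 H3K9ac peaks went from 12 to 45 and H3K27ac peaks from 20 to 72. At chr24:14200001-14300000 they went from 8 to 40 and from 16 to 54. In these 3 windows both acetyl marks had more peaks after butyrate, and no butyrate H3K9ac peak reached 1000 bp. The windows were chosen for their rise in H3K9ac. Over all chromosomes 0.566% of butyrate H3K9ac peaks reached 1000 bp, and H3K27ac peaks had a log2 ratio of 0.99, so neither trait is particular to these windows.

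The largest fall was at chr16:46000001-46100000, from 53 control to 13 butyrate H3K9ac peaks, with 26.7 kb and 5.29 kb covered. H3K27ac peaks there numbered 50 and 47, and the bases they covered 40.6 kb and 21.5 kb. At chr6:20400001-20500000 H3K9ac peaks went from 57 to 21 and H3K27ac peaks from 49 to 35. At chr2:36200001-36300000 they went from 56 to 21 and from 60 to 41. Peaks of at least 1000 bp in the windows went from 6 to 1, from 9 to 0 and from 8 to 0. Between 24.5% and 31.6% of the control peaks were overlapped, against 48.6% in the whole control list. Pol II peaks were more numerous after butyrate in each window, at 3 and 10, 5 and 9, and 3 and 15. The whole Pol II lists held 56240 control and 31240 butyrate peaks. In the windows of largest rise, in the order given above, Pol II peaks numbered 7 and 15, 6 and 2, and 11 and 11. Whether Pol II differed between rising and falling windows was not tested. The windows were chosen for the largest fall in H3K9ac peak number. Dense control H3K9ac, fewer long peaks and a low share overlapped go with that choice and are no separate result. H3K27ac also covered fewer bases after butyrate in each window, while its whole lists covered 37.9 Mb in control and 81.0 Mb after butyrate. Its counts did not enter the choice, but 60.3% of control H3K9ac peaks overlapped a control H3K27ac peak. H3K27ac in these windows is therefore not independent of the choice, and its fall there was not tested.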

How the data were processed

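H3K9ac ChIP-seq peaks of MDBK cells were analysed. According to the labels and the study's methods, the authors trimmed reads with Trim Galore 0.4.1, aligned them to the cattle assembly UMD3.1 with BWA, kept unique reads with few mismatches and ran MACS2 with its defaults on every ChIP library by itself, against 1 MDBK input library, which was not analysed here. The deposited lists hold only chromosome, start and end in bp, without score, signal or count of reads, and no gene annotation or genome of that assembly was used, so genes and sequences are not given. Starts were read as counted from 0. If they were counted from 1, each length is 1 bp too low.

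Length was end minus start, overlap was at least 1 bp, and windows of 100 kb ran from the start of each nuclear chromosome to the last peak in any list. Count ratios had exact binomial intervals, shares Wilson intervals and medians binomial intervals, all at 95%. With 1 library per group no test was run. Named regions were the 3 windows of 100 kb with the largest rise and the 3 with the largest fall in peak number, the cluster with the most peaks and the longest nuclear peak of each list. The length classes, window measures and this rule were chosen with earlier results of these data known, and joining distances other than 1 kb were chosen after seeing the data. The procedures were tested on simulated peaks. The alternatives were autosomes only, joined peaks, stricter or looser overlap, peaks of at least 300 bp, other links and windows, other orders of windows, and covered bases. Scripts ran in Python 3.11.15 (numpy 2.4.6, scipy 1.17.1), and plots were made in matplotlib 3.10.9.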

Additional observations from a re-analysis of the deposited data

Results flagged for a closer look

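H3K9ac and H3K27ac went in opposite directions under the same treatment in 4 measures, each from 1 library a side, and none of these differences was tested. The log2 ratio of butyrate to control peak number was -0.12 for H3K9ac and 1.37 for H3K27ac at 500-1000 bp, and -1.98 and 1.12 at 1000 bp or more. On the X chromosome it was -0.50 for H3K9ac and 0.79 for H3K27ac. The log2 ratio of the median gap was 0.48 for H3K9ac and -0.90 for H3K27ac.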

How the results depend on the processing

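No paired analysis was possible because each condition had 1 library, and for the same reason no library could be left out. Of 54 alternatives to 16 values, 8 stayed within the counting interval, 43 left it or had none, without turning a clear direction, and 3 turned one. Joining peaks less than 1 kb apart reversed the log2 ratio of peak number at 500-1000 bp (0.82) and at 1000 bp or more (0.34). At 1000 bp or more, joining distances chosen after seeing the data gave -0.60 below 300 bp, -0.15 below 500 bp and 0.66 below 3 kb. By construction joining makes long regions out of close short peaks. Joining below 1 kb also gave 1.03 under 300 bp and 0.98 at 300-500 bp. Leaving out peaks of the shortest length, an alternative chosen after seeing the data, gave 0.79 under 300 bp.

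From the shortest to the longest class, the share of control peaks kept was 29.4%, 40.3%, 43.9% and 47.3% with 50% of the peak covered, 63.6%, 73.3%, 85.2% and 94.9% with a butyrate peak within 1 kb, and 18.9%, 31.3%, 50.5% and 74.0% with butyrate peaks of at least 300 bp. Peaks of at least 300 bp gave a log2 ratio of the median gap of 0.84 and placed 67.7% of control and 53.8% of butyrate peaks in clusters. A link of 1 kb placed 59.1% and 48.8% there, and a link of over 10 kb 89.3% and 91.5%.

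The log2 ratio of variance to mean was -0.049 in 50 kb windows, 0.28 in 1 Mb windows, -0.25 for peaks of at least 300 bp and 0.015 on the autosomes, so its sign depended on these settings, and the cause was not tested. In windows with 1 to 3 control peaks the log2 ratio was 1.43 with 50 kb windows, 0.82 by flanking windows, 0.69 by butyrate H3K9ac, 0.68 for peaks of at least 300 bp and 1.36 on the autosomes. With 16 or more control peaks it was -0.054 with 50 kb windows, 0.22 by flanking windows, 0.58 by butyrate H3K9ac and -0.60 for peaks of at least 300 bp. The share of windows called higher was 42.6% with 50 kb windows, 36.8% in covered bases and 31.4% for peaks of at least 300 bp, and that called lower was 7.25%, 7.48% and 13.0%.

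The limits of these values are the single library per condition, the lack of peak scores and the unused input. Read depth was not part of the lists, and how far depth or the calling threshold set peak number and length was not tested.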

Other observations

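Rows of the lists were not in genomic order throughout. The control list consisted of 203 runs, each in genomic order, and the butyrate list of 116, the longest with 24.7% and 37.2% of the peaks. Long peaks were more frequent in the early rows, with a median length of 556 bp in the first 10% of control rows and 380 bp in the first 10% of butyrate rows. In the first 10% of control rows 60.5% of peaks met a butyrate peak, and 28.4% did so between 30% and 40% of the way down, where 67.3% overlapped a control H3K27ac peak. In the next 10% of rows these shares were 50.3% and 41.3%. The sources used here do not say what set the order, and no result rests on it.

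Some windows had peaks in 1 list only. The window with the most butyrate peaks and no control peak was chr27:36500001-36600000, with 20, and H3K27ac peaks there numbered 5 in control and 30 after butyrate. The window with the most control peaks and no butyrate peak was chrX:62600001-62700000, with 14, and H3K27ac peaks there numbered 22 and 15. These windows were chosen after their values were seen. On the mitochondrial genome the lists held 11 control and 10 butyrate peaks, which covered 12037 and 11384 bp.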
